A study of Mus musculus with 8 samples.

Results

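The integrated stress response and the unfolded protein response were followed in mouse liver through 37 genes, chosen by name as ATF4-linked or endoplasmic reticulum (ER) stress genes, with no measured value in the rule. The table holds 20894 genes. Of the 37, 19 were assigned to an ATF4 branch, 10 to an ATF6 branch and 8 to an XBP1 branch by textbook knowledge, although several ER genes answer to both ATF6 and XBP1, and 28 had enough counts to be tested. Wild-type mice had been injected with an adeno-associated virus of serotype AAV8 carrying POLR2G, which encodes a stalk subunit of RNA polymerase II, or with the same vector carrying green fluorescent protein (GFP). In both, the TBG promoter, which is active mainly in hepatocytes, drove the transgene, and livers were collected after a daytime fast. There were 4 POLR2G and 4 GFP libraries of poly-A selected RNA, and no age, sex or strain beyond wild type is given in the sources used here. A POLR2G column whose number matches no label is called the unnumbered POLR2G library, so the POLR2G libraries are replicates 1, 3 and 4 and the unnumbered one.

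Cells sense misfolded proteins in the ER through 3 membrane proteins. PERK (Eif2ak3) phosphorylates the initiation factor eIF2, which slows translation but favours that of ATF4, a transcription factor that raises genes for amino acid supply and redox balance. Other eIF2 kinases answer to amino acid shortage, viral RNA or heme shortage and converge on ATF4, which is why the wider program is called the integrated stress response. ATF6 is cut in the Golgi to release a transcription factor for ER chaperones, and IRE1 (Ern1) splices the Xbp1 mRNA so that it encodes an active factor for folding and degradation genes. Hepatocytes secrete large amounts of plasma protein and keep these chaperones at a high level. Because ATF4 is controlled by translation, ATF6 by cleavage and XBP1 by splicing, the gene counts used here measure the mRNA of these factors and of their targets, not their activity.

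The promoters were read for elements that the branches share at the DNA level. RefSeq promoter windows of 300 bases, 250 before to 50 after the start of a gene, were found for 31 of the 37 genes (RefSeq, GRCm38.p6). They were searched on both strands for the ER stress response element (ERSE; CCAAT, any 9 bases, CCACG), for ERSE-II (ATTGG, any 1 base, CCACG), for the UPRE core TGACGTGG bound by XBP1 and ATF6, and for the C/EBP-ATF response element (CARE; TGATGNAA) bound by ATF4. ERSE lay in the windows of 4 of 7 ATF6 genes and 3 of 8 XBP1 genes, and in 0.119% of 32851 promoter windows of the whole genome. As the branches were assigned by textbook knowledge of these factors, the shares here and below are description and no evidence for the branches. Each ERSE and ERSE-II ends in CCACG, which alone was held by 32.8% of all windows. The windows below are shown because these genes of the ATF6 and XBP1 branches hold the same kind of site. Each is read 5′ to 3′ on the strand of the element, with its conserved boxes in capitals.

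Hspa5, chr2:34772005-34772063, plus strand: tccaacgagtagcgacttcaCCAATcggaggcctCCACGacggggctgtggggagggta
Calr, chr8:84847055-84847113, plus strand: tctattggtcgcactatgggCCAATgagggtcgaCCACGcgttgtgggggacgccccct
Creld2, chr15:88819500-88819558, minus strand: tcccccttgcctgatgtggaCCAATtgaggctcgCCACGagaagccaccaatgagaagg
Dnajc3, chr14:118937807-118937865, plus strand: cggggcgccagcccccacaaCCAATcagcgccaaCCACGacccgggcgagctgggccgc
Pdia6, chr12:17266471-17266529, plus strand: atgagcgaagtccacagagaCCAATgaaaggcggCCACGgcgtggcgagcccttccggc
Syvn1, chr19:6046512-6046570, plus strand: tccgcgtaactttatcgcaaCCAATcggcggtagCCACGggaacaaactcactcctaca

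Herpud1 held the only ERSE-II among the 31 windows, an element found in 0.0365% of all windows. A CARE match lay in the windows of 6 of 16 ATF4 genes, Asns, Atf3, Chac1, Nupr1, Slc7a11 and Trib3, in 1 of 7 ATF6 genes (Herpud1) and in 0 of 8 XBP1 genes, against 3.97% of all windows. The UPRE core was in none of the 31 windows and in 0.676% of all. A match is a description of letters and was not shown to be bound. The ERSE-II of Herpud1 and the CARE of 4 ATF4 genes are shown because the Herpud1 and Chac1 windows belong to genes whose values are given below, and Asns and Atf3 to genes with almost no counts.

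Herpud1, chr8:94386357-94386407, plus strand: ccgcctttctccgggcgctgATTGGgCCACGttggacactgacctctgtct
Chac1, chr2:119351029-119351076, minus strand: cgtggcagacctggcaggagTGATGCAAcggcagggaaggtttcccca
Trib3, chr2:152344019-152344066, plus strand: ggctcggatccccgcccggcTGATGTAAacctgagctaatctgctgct
Atf3, chr1:191183416-191183463, plus strand: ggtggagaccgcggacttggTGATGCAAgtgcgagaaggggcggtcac
Asns, chr6:7693205-7693252, minus strand: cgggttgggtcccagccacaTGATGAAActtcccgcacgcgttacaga

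Total estimated counts were 16362899 to 22165491 in the POLR2G libraries and 14159056 to 18865284 in the GFP libraries. Polr2g measured 2298 to 2630 CPM (the count relative to the library total after TMM scaling) in the POLR2G libraries and 12.4 to 14.8 CPM in the GFP libraries. Each library thus matched the group given by its column name. On the first principal components GFP replicates 3 and 1 lay farthest from the rest. Hepatocyte markers such as Alb and Apoa1 were abundant, and the summed level of 6 of them was 111246 to 125144 CPM in the POLR2G and 118851 to 140520 CPM in the GFP libraries, with a lower mean in POLR2G livers for all 6 (median log2 fold change −0.15). Summed markers of Kupffer cells were 193 to 384 CPM in POLR2G and 178 to 279 CPM in GFP libraries (6 of 7 genes with a higher mean in POLR2G livers), those of stellate cells 101 to 150 and 81.2 to 153 CPM, and those of T, B and plasma cells, the last being secretory cells rich in ER, 2.41 to 3.77 and 1.30 to 3.90 CPM. Between POLR2G and GFP libraries the sums overlapped for all 7 marker lists, and the part of cell makeup in the results was not tested. In bulk liver RNA, fewer cells of a type and less RNA per cell cannot be told apart.

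None of the 28 tested stress genes passed in the POLR2G livers relative to the GFP livers. The test was edgeR's quasi-likelihood test with p-values adjusted over all 10390 genes tested and a threshold of 0.05, which called 4 genes in all (0.0385%). The smallest adjusted p among the 28 was 0.632, for Chac1. At an unadjusted p under 0.05 edgeR called 0 of the 28, against 8.3% of all genes tested. DESeq2 and limma-voom also called 0 of the 28 after adjustment, where DESeq2 called 1.35% of all genes (0.731% higher in POLR2G livers and 0.616% lower) and limma-voom 0.0289% (0.0192% higher and 0.00962% lower). Unadjusted, DESeq2 gave 1 of them, Chac1, and limma-voom 0, against 8.67% and 8.95% of all genes. For each of the 28 the 4 POLR2G and the 4 GFP libraries overlapped, while 5.51% of all genes tested had groups that did not overlap (2.83% higher in POLR2G livers and 2.68% lower). The mean was higher in POLR2G livers for 10 of the 28, against 49.3% of all genes tested, and lower for 18. The median log2 fold change of POLR2G over GFP was −0.12 for the 11 tested genes of the ATF4 branch, −0.12 for the 9 of the ATF6 branch and 0.029 for the 8 of the XBP1 branch, and −0.0031 for all genes tested.

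**Figure D1:**
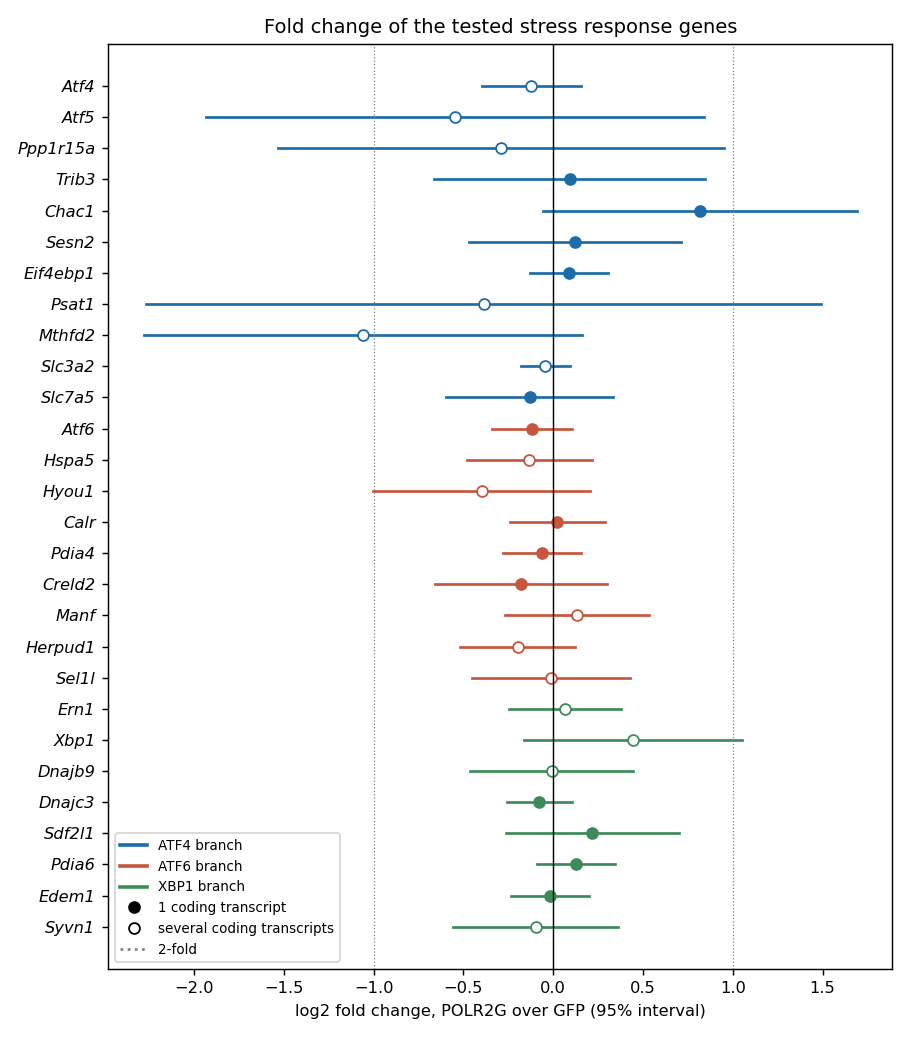
Log2 fold change of POLR2G over GFP livers (x axis, with its unadjusted 95% interval) for the 28 tested genes (rows), coloured by branch, with filled points for genes that have 1 annotated coding transcript. Every interval includes 0, and intervals are widest for Psat1, Atf5, Ppp1r15a and Mthfd2, which had few counts.

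The precision differed between branches. The unadjusted 95% interval of the fold change lay within 1.5-fold in either direction for 13 of the 17 tested ER genes (ATF6 and XBP1 branches together), for 3 of the 11 tested ATF4 genes and for 51.7% of all genes tested. It lay within 2-fold for 15 of the 17 ER genes, 6 of the 11 ATF4 genes and 74.7% of all genes. The median level, averaged over both groups, was 99.2 CPM for the ER genes, 4.195 CPM for the ATF4 genes and 12.04 CPM for all genes. A change of 2-fold lay outside the interval for most ER genes, and inside it for 5 of the 11 ATF4 genes.

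The table gives few or no counts to several genes of the ATF4 branch, and 8 of its 19 members were not tested. Phgdh, the first enzyme of serine synthesis, and Slc7a11, the cystine transporter, were listed at 0 in every library. Asns, asparagine synthetase, was listed at 0 in all POLR2G libraries and in 3 GFP libraries, and had 3 counts in GFP replicate 4. Eif2ak3, the PERK kinase itself, had 3, 1, 7 and 4 counts in POLR2G libraries, against 1, 4, 0 and 1 in GFP libraries (here and below in the order replicate 1, 3, 4 and unnumbered for POLR2G, and 1 to 4 for GFP). Each of these 4 genes has several annotated coding transcripts in GENCODE M21. Genes that every cell uses were near 0 too, such as the translation factor Eif2a, with 0 to 2 counts in POLR2G and 0 in GFP libraries, and the signal peptidase subunit Sec11a, with 0 to 4 and 0 to 2. The near-zero values are therefore not read as low expression, and whether they cover all transcripts of a gene was not tested.

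Ddit3, which encodes CHOP, a factor that promotes cell death under lasting ER stress, had 3, 2, 2 and 7 counts in POLR2G libraries, against 11, 5, 8 and 9 in GFP libraries. The groups overlapped through the unnumbered POLR2G library, and a second identifier with the symbol Ddit3 had 0 counts. Atf3, an early stress factor, had 17 counts in POLR2G replicate 3 and 31 in the unnumbered POLR2G library and 0 in the other POLR2G and in all GFP libraries. Aldh1l2, a mitochondrial folate enzyme, had 0 counts in all POLR2G libraries, against 4, 4, 8 and 0 in GFP libraries. With no filter on low counts, edgeR gave Atf3 an unadjusted p of 0.0192 and an adjusted p of 0.595, and Aldh1l2 an unadjusted p of 0.0138 and an adjusted p of 0.586. Nupr1, a stress-induced chromatin protein, had 7 to 9 counts in POLR2G and 6 to 12 in GFP libraries.

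Atf4 (GRCm38 chromosome 15, 80255184 to 80257541, plus strand) measured 72.1, 64.4, 71.1 and 73.1 CPM in POLR2G libraries, against 96.9, 72.8, 72.4 and 63.2 CPM in GFP libraries. GFP replicate 1 stood above the other 7 libraries, which lay close together. The means were 70.2 ± 3.98 CPM in POLR2G and 76.3 ± 14.4 CPM in GFP livers (SD, n = 4 each), with a log2 fold change of −0.12 (SE 0.122, edgeR adjusted p = 0.854). Without GFP replicate 1 it was 0.015. Atf5, a related factor translated in the same manner, averaged 1.103 ± 0.793 CPM in POLR2G and 1.62 ± 0.830 CPM in GFP livers, with a log2 fold change of −0.55 (SE 0.617).

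Among genes that damp the response or act on cell fate, Chac1, a glutathione-degrading enzyme and a sensitive ATF4 target, had the smallest p of the 28. Chac1 (chromosome 2, 119351229 to 119354381, plus strand) measured 4.39, 7.02, 11.4 and 6.46 CPM in POLR2G libraries, against 1.69, 5.22, 5.48 and 4.22 CPM in GFP libraries. Of the POLR2G libraries 3 lay above all GFP libraries and POLR2G replicate 1 lay among them, and GFP replicate 1 was the lowest of the 8. The log2 fold change was 0.82 (SE 0.389, 95% interval −0.058 to 1.69, edgeR adjusted p = 0.632). It was 0.52 without POLR2G replicate 4. Eif4ebp1, an inhibitor of cap-dependent translation, measured 36.5, 33.8, 31.8 and 36.7 CPM in POLR2G libraries, against 29.2, 30.6, 38.1 and 32.8 CPM in GFP libraries. Its libraries spread little and overlapped fully (log2 fold change 0.088, SE 0.0965, edgeR adjusted p = 0.872).

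Fold changes were smaller or had wider errors in the other tested genes of this group. Trib3, a pseudokinase that inhibits ATF4 and AKT, ranged from 1.92 to 6.70 CPM in POLR2G and 3.52 to 4.57 CPM in GFP libraries. Its POLR2G libraries lay on both sides of the GFP ones (log2 fold change 0.091, SE 0.335). Sesn2, which restrains mTORC1, ranged from 5.51 to 13.9 CPM in POLR2G and from 6.67 to 10.4 CPM in GFP libraries (log2 fold change 0.12, SE 0.262). Ppp1r15a (GADD34), the subunit that directs eIF2 dephosphorylation, had 8 to 34 counts in POLR2G and 11 to 33 in GFP libraries, with a log2 fold change of −0.29 (SE 0.552).

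Of the 5 enzymes of amino acid and one-carbon metabolism only Mthfd2 and Psat1 were tested, both at low counts. Mthfd2, a mitochondrial folate enzyme, measured 0.530, 0.702, 1.82 and 0.778 CPM in POLR2G libraries, against 1.98, 1.45, 3.74 and 0.866 CPM in GFP libraries. POLR2G replicate 4 alone lay among the GFP libraries, and the other POLR2G libraries lay below all of them. With 11 to 32 counts in POLR2G and 16 to 58 in GFP libraries, the log2 fold change was −1.06 (SE 0.542, 95% interval −2.28 to 0.16, edgeR adjusted p = 0.658). It was −0.58 without GFP replicate 3 and −1.57 without POLR2G replicate 4. Psat1, a serine synthesis enzyme, had 3 to 15 counts in POLR2G and 0 to 21 in GFP libraries (log2 fold change −0.39, SE 0.835). The amino acid transporter subunits were steadier. Slc3a2, the heavy chain shared by several transporters, ranged from 42.0 to 46.5 CPM in POLR2G and 44.2 to 46.0 CPM in GFP libraries, and its fold change had the narrowest interval of the 28 (log2 fold change −0.044, SE 0.061, 95% interval −0.18 to 0.093). Slc7a5, its light-chain partner for large neutral amino acids, had a log2 fold change of −0.13 (SE 0.208).

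**Figure D2:**
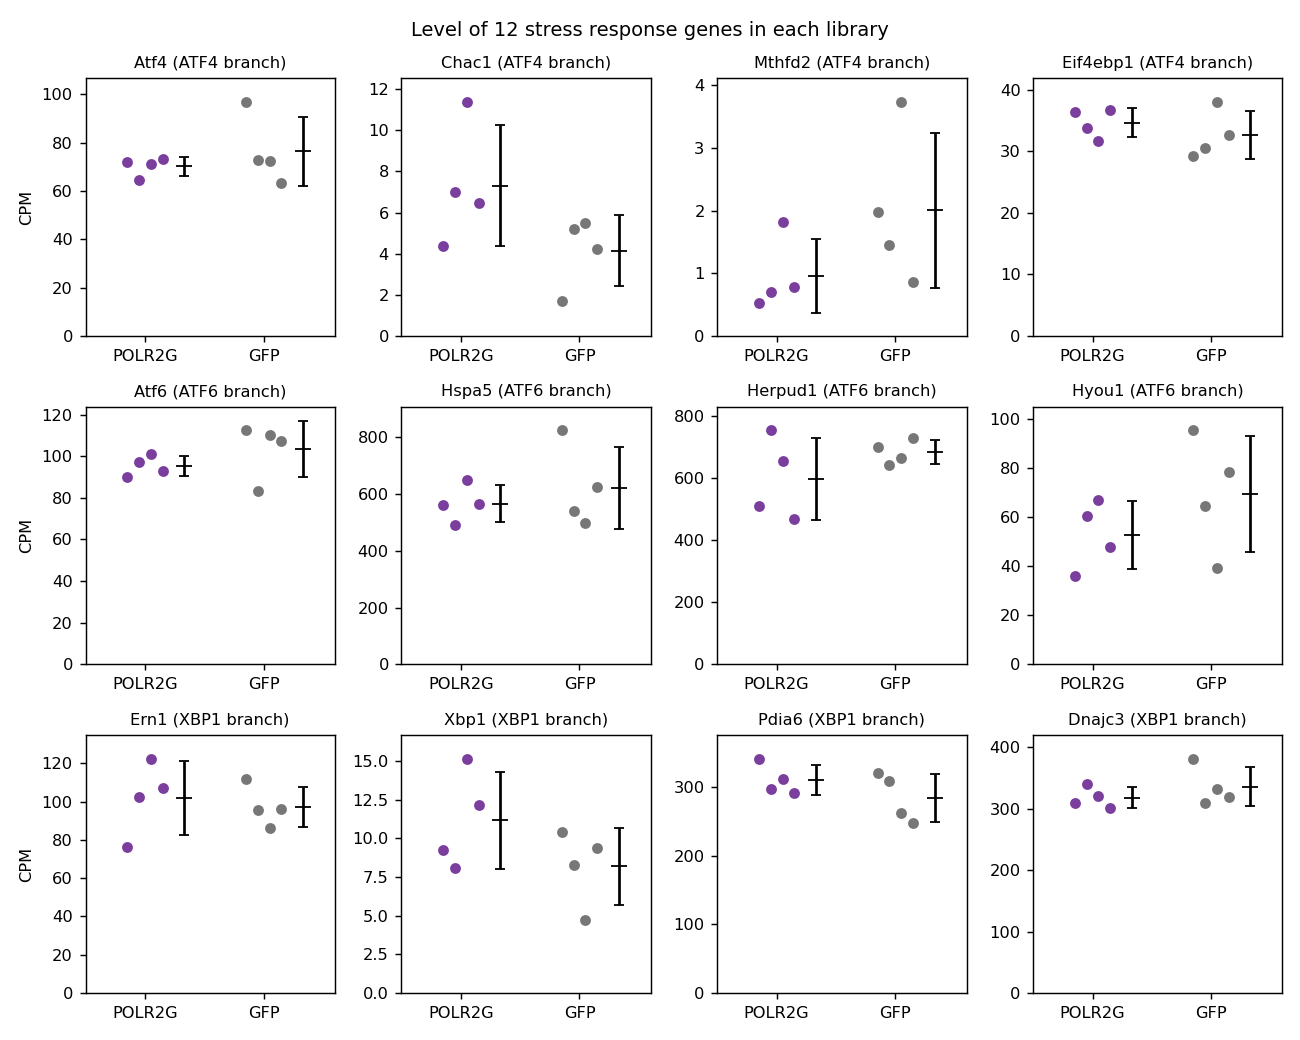
Level in CPM (y axes, from 0) of 12 of the genes in each library, with 4 POLR2G libraries (purple) left of 4 GFP libraries (grey) and black bars for mean ± SD. The groups overlap in every panel, with Chac1 highest in a POLR2G library at 11.4 CPM and Atf4, Hspa5 and Hyou1 highest in GFP replicate 1 at 96.9, 824 and 95.6 CPM.

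In the ATF6 branch, the sensor and the chaperones it controls overlapped between the groups. Atf6 (chromosome 1, 170704674 to 170867771, minus strand) measured 89.8, 97.3, 101 and 92.8 CPM in POLR2G libraries, against 112, 83.3, 110.0 and 107 CPM in GFP libraries. GFP replicate 2 lay below all POLR2G libraries, and the other GFP libraries lay above them. The log2 fold change was −0.12 (SE 0.0990, 95% interval −0.34 to 0.11, edgeR adjusted p = 0.824). With 1 library left out it ranged from −0.21 to −0.072. Without GFP replicate 2 the edgeR p for Atf6 was 0.0168 unadjusted and 0.488 adjusted. Hspa5 (BiP; chromosome 2, 34771970 to 34777547, plus strand), the main ER chaperone and a common readout of the unfolded protein response, measured 563, 492, 648 and 563 CPM in POLR2G libraries, against 824, 539, 498 and 624 CPM in GFP libraries. GFP replicate 1 was again the highest. The means were 566 ± 64.1 CPM in POLR2G and 621 ± 145 CPM in GFP livers (SD, n = 4 each), a log2 fold change of −0.13 (SE 0.155, 95% interval −0.48 to 0.22, edgeR adjusted p = 0.882). Without GFP replicate 1 it was 0.034.

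Hyou1 (GRP170), which recharges BiP with ATP, had the largest difference of the branch at 35.9, 60.7, 67.3 and 47.8 CPM in POLR2G libraries, against 95.6, 64.9, 39.4 and 78.7 CPM in GFP libraries. It spread widely in both groups, with GFP replicate 3 among the low POLR2G values (log2 fold change −0.40, SE 0.269, edgeR adjusted p = 0.764). Its difference was −0.59 on the log2 scale without GFP replicate 3 (edgeR adjusted p = 0.475), −0.21 without GFP replicate 1 and −0.25 without POLR2G replicate 1. Herpud1, a membrane protein of ER-associated degradation, measured 508, 753, 653 and 469 CPM in POLR2G libraries, against 701, 642, 663 and 728 CPM in GFP libraries. POLR2G replicate 1 and the unnumbered library lay below all GFP libraries and POLR2G replicate 3 above them (log2 fold change −0.20, SE 0.141, edgeR adjusted p = 0.772).

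On the log2 scale, differences were smaller in the other tested members of the branch than in Hyou1 and Herpud1. Calr, the calcium-binding lectin chaperone calreticulin, averaged 763 ± 72.7 CPM in POLR2G and 750.3 ± 116 CPM in GFP livers (log2 fold change 0.024, SE 0.117). Pdia4, a disulfide isomerase, had a log2 fold change of −0.062 (SE 0.0957). Creld2 and Manf, secreted ER stress proteins, had log2 fold changes of −0.18 (SE 0.213) and 0.13 (SE 0.178). Sel1l, the scaffold of the HRD1 ubiquitin ligase complex, stood at −0.013 (SE 0.195). Hsp90b1 (GRP94), one of the most abundant ER chaperones in secretory tissue, was not tested, as the table held 0, 0, 4 and 0 counts for it in POLR2G and 2, 6, 0 and 0 in GFP libraries, with 2 coding transcripts annotated.

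In the XBP1 branch all 8 members were tested. Xbp1 (chromosome 11, 5520659 to 5525893, plus strand) measured 9.26, 8.07, 15.1 and 12.1 CPM in POLR2G libraries, against 10.4, 8.29, 4.70 and 9.37 CPM in GFP libraries. POLR2G replicate 4 and the unnumbered library lay above all GFP libraries and the other POLR2G libraries among them, while GFP replicate 3 was the lowest. The log2 fold change was 0.44 (SE 0.270, 95% interval −0.16 to 1.05, edgeR adjusted p = 0.746; 0.25 without GFP replicate 3 and 0.26 without POLR2G replicate 4), and spliced and unspliced forms are not separated in a gene count. Ern1, the IRE1 nuclease, measured 76.0, 102, 122 and 107 CPM in POLR2G libraries, against 112, 95.4, 86.1 and 95.9 CPM in GFP libraries. Both the lowest and the highest library were POLR2G ones (log2 fold change 0.066, SE 0.139, edgeR adjusted p = 0.942).

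Among the XBP1-linked folding genes the groups overlapped as well. Pdia6, a disulfide isomerase that also acts on IRE1, measured 341, 298, 313 and 292 CPM in POLR2G libraries, against 320.1, 309, 262 and 248 CPM in GFP libraries. GFP replicates 3 and 4 lay below the rest (log2 fold change 0.13, SE 0.0974, edgeR adjusted p = 0.792). Sdf2l1, a component of the BiP chaperone cycle, measured 24.7, 15.2, 20.3 and 18.1 CPM in POLR2G libraries, against 19.5, 21.3, 15.3 and 11.2 CPM in GFP libraries, and the groups overlapped widely (log2 fold change 0.22, SE 0.213, edgeR adjusted p = 0.847). Dnajc3 (p58IPK), a BiP co-chaperone that also inhibits eIF2 kinases, measured 310.0, 340.2, 321 and 302 CPM in POLR2G libraries, against 381, 310.1, 332 and 319.9 CPM in GFP libraries. GFP replicate 1 alone lay above the others (log2 fold change −0.078, SE 0.0805, edgeR adjusted p = 0.861). Dnajb9 (ERdj4), a J-protein that represses IRE1, had a log2 fold change of −0.0088 (SE 0.203), and the degradation genes Edem1, a mannosidase-like lectin, and Syvn1, the ubiquitin ligase HRD1, had −0.017 (SE 0.0960) and −0.098 (SE 0.204).

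The log2 difference between the groups was smaller than the SD within groups for every tested member other than Chac1 and Mthfd2, and the ER genes deviated to the same side in some libraries. In GFP replicate 1 all 17 tested ER genes lay above their own mean over the 8 libraries, and 9 of the 17 reached their highest value there, against 16.0% of all genes tested. In POLR2G replicate 4, 15 of the 17 lay above their mean. In GFP replicate 3, 12 of the 17 lay below it, as did 11 of the 17 in each of POLR2G replicate 3, the unnumbered POLR2G library and GFP replicate 2. The median deviation of the ER genes, in log2 CPM, was −0.041, −0.11, 0.16 and −0.057 in POLR2G libraries and 0.20, −0.084, −0.21 and 0.022 in GFP libraries, and both the highest and the lowest value belonged to GFP libraries. The same deviation over all genes tested was between 0.0024 and 0.012 in each library. The SD of log2 CPM was larger in the GFP than in the POLR2G group for 13 of the 17 ER genes and for 59.4% of all genes tested. With GFP replicates 1 and 3 both left out, an alternative chosen after seeing the data, 0 members passed and the branch medians were 0.088 (ATF4, with Atf3 among its 12 tested genes), −0.00025 (ATF6) and 0.12 (XBP1).

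**Figure D3:**
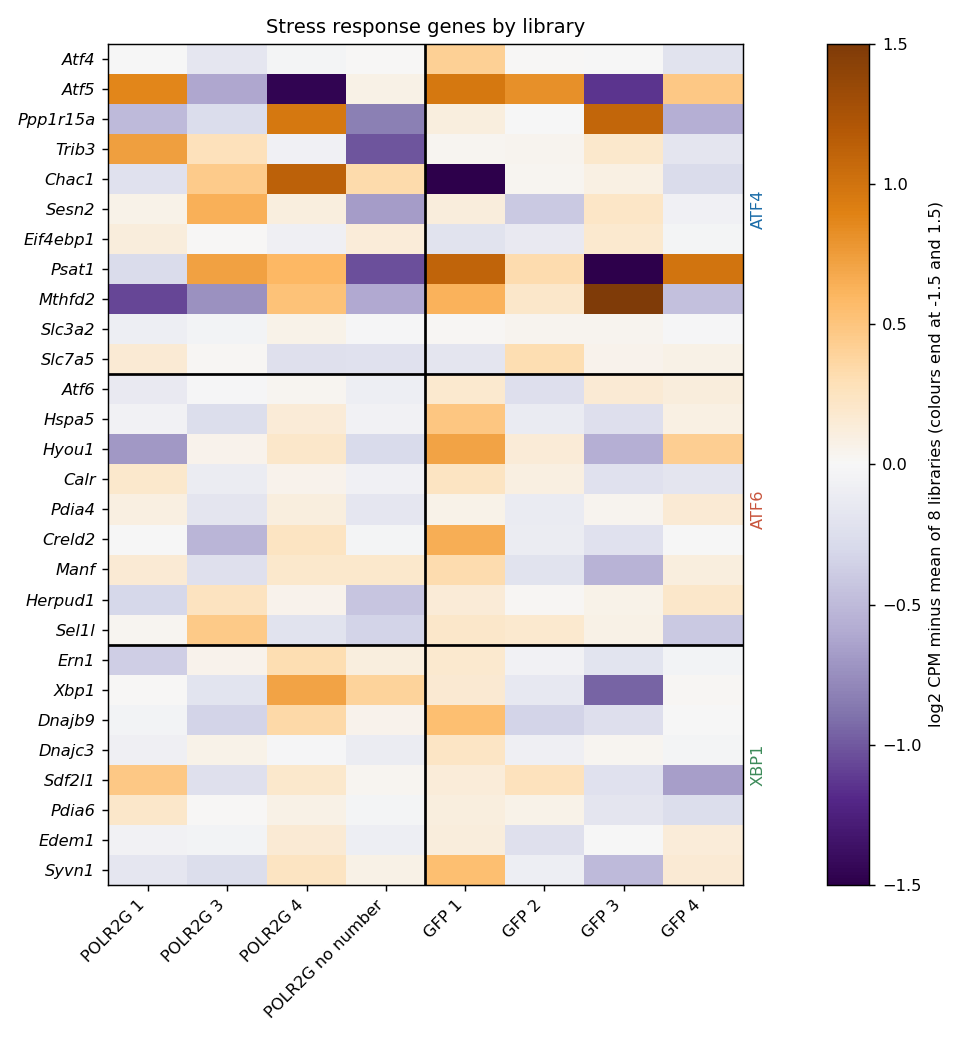
Deviation of each tested gene (rows, by branch) from its mean log2 CPM over the 8 libraries (columns, POLR2G left, GFP right), orange above and purple below. The ATF6 and XBP1 rows are orange throughout in GFP replicate 1, and the ATF4 rows share no such column.

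No library held all 11 tested ATF4 genes on the same side of their mean. In each of GFP replicates 1, 2 and 3, 8 of the 11 lay above it. In GFP replicate 4, 8 of the 11 lay below it, as did 7 in the unnumbered POLR2G library. Chac1 had its lowest value in GFP replicate 1. In GFP replicate 3 Ppp1r15a and Mthfd2 were at their highest and Psat1 at its lowest. The median SD of log2 CPM within groups was 0.535 for the ATF4 genes, 0.254 for the ER genes and 0.244 for all genes tested. The ATF4 genes also had lower counts, and the part of counting error in their spread was not tested.

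**Figure D4:**
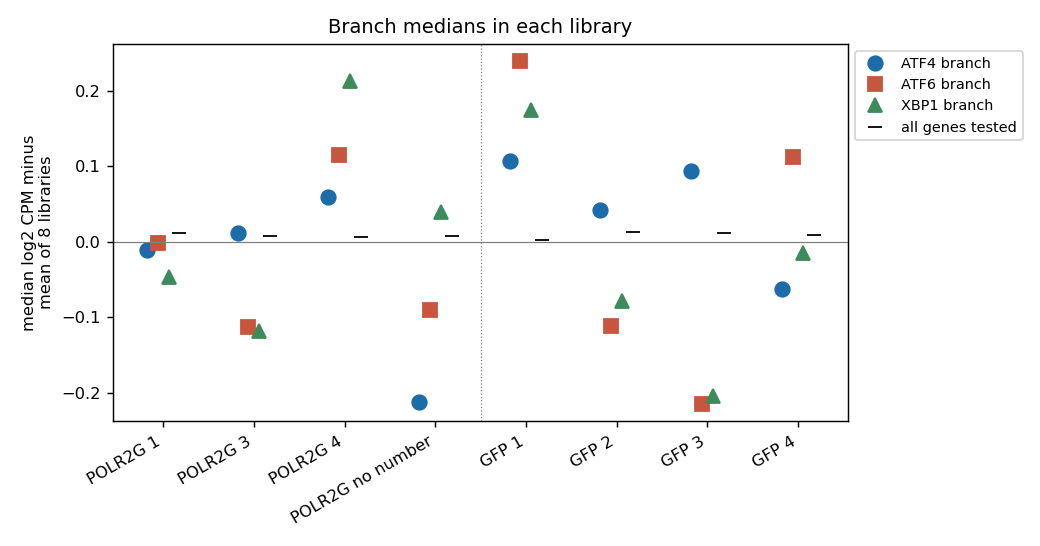
Median deviation from the mean of 8 libraries, in log2 CPM (y axis), of the tested genes of each branch and of all genes tested (dashes), by library (POLR2G left, GFP right). The ATF6 median is 0.24 in GFP replicate 1 and −0.22 in GFP replicate 3, and lies between −0.11 and 0.11 in the POLR2G libraries. The XBP1 median reaches 0.21 in POLR2G replicate 4 and the ATF4 median −0.21 in the unnumbered POLR2G library.

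The values were also set against the number of coding transcripts annotated for each gene. Of the 14 members with 1 coding transcript 13 were tested, against 15 of the 23 members with several. Over the protein-coding genes of the table the shares tested were 44.0% with 1 and 52.8% with several. In the ATF4 branch the 5 tested genes with 1 coding transcript, Chac1, Trib3, Sesn2, Eif4ebp1 and Slc7a5, had a median log2 fold change of 0.091 and the 6 with several, Atf4, Atf5, Ppp1r15a, Psat1, Mthfd2 and Slc3a2, one of −0.34. In the ATF6 and XBP1 branches the medians were −0.039 for the 8 genes with 1 and −0.013 for the 9 with several. Whether the values of genes with several transcripts cover all of them was not tested.

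Further genes of the same pathways did not pass either. Of 55 other genes of the integrated stress response 53 were matched by symbol. Of these, 38 were tested and 0 passed (edgeR), with a median log2 fold change of −0.081. An unadjusted p under 0.05 was found for 7 of the 38, where 8.3% of all genes tested had one. All 7 were lower in POLR2G livers (Cebpg, Fgf21, Vldlr, Pck2, Mthfd1l, Slc1a4 and Yars). The groups did not overlap for 4 of the 38, Cebpg, Fgf21, Mthfd1l and Slc1a4, again all lower in POLR2G livers. Of all genes tested 5.51% did not overlap, and 2.68% did so with POLR2G lower. The list was chosen with earlier results of these data known, and its difference from all genes was not tested. Of 73 other genes listed as ER genes 70 were matched by symbol, 55 were tested and 0 passed, with a median of 0.017. The tested ones include Nrf1, which encodes a nuclear factor and not an ER protein (log2 fold change 0.16, SE 0.154). An unadjusted p under 0.05 was found for 5 of the 55 and groups without overlap for 2, Kdelr1 and Os9. Over all genes tested the shares were 8.3% and 5.51%, so neither count is read as a result about these genes. Among ATF4-linked genes the smallest p belonged to Fgf21, the fasting hormone named in the title of the series, at 0.863 ± 0.379 CPM in POLR2G and 2.34 ± 0.583 CPM in GFP livers (log2 fold change −1.44, SE 0.381, edgeR adjusted p = 0.344). It was followed by Vldlr, a lipoprotein receptor, with a log2 fold change of −2.06 (SE 0.583, edgeR adjusted p = 0.360). Vldlr had few counts, 11, 4, 13 and 16 in POLR2G and 14, 62, 64 and 34 in GFP libraries, and its groups overlapped. Among eIF2 kinases and phosphatase subunits Eif2ak2 (PKR) had −0.16 (SE 0.102) and Ppp1r15b −0.078 (SE 0.0855), and among tRNA synthetases Yars had −0.24 (SE 0.0932) and Mars −0.84 (SE 0.478).

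Some ER genes outside the 37 stood higher or lower in mean without passing. At an unadjusted edgeR p under 0.05, Os9, Kdelr1, Dnajb11 and P4hb were higher in POLR2G livers and Ero1l was lower. Ero1l averaged 32.5 ± 2.19 CPM in POLR2G and 37.4 ± 3.45 CPM in GFP livers (log2 fold change −0.20, SE 0.0876, edgeR adjusted p = 0.594). Os9, a lectin that delivers misfolded glycoproteins to degradation, averaged 317 ± 11.6 CPM in POLR2G and 274 ± 14.7 CPM in GFP livers, and its groups did not overlap (log2 fold change 0.21, SE 0.0642, edgeR adjusted p = 0.398). Kdelr1, the receptor that returns chaperones to the ER, averaged 10.04 ± 1.35 CPM in POLR2G and 7.77 ± 0.381 CPM in GFP livers, also without overlap (log2 fold change 0.37, SE 0.134, adjusted p = 0.494). Dnajb11, another BiP co-chaperone, had a log2 fold change of 0.62 (SE 0.179, adjusted p = 0.364). P4hb, a disulfide isomerase, had 2.53 (SE 1.08, edgeR adjusted p = 0.579). It averaged 3.66 ± 2.64 CPM in POLR2G and 0.618 ± 0.921 CPM in GFP livers, and its groups overlapped. Its counts were 149, 40, 71 and 18 in POLR2G and 0, 9, 0 and 36 in GFP libraries. With 2 coding transcripts annotated, whether these counts cover both was not tested. Among membrane factors Creb3l2 had 0.34 (SE 0.158) and Mbtps1, the protease that starts ATF6 cleavage, 0.11 (SE 0.0686). Lman1, a cargo receptor, had −0.17 (SE 0.137), and Ube2g2, a ubiquitin-conjugating enzyme of ER degradation, −0.27 (SE 0.151).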

How the data were processed

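The authors deposited estimated counts for each Ensembl gene, in whole numbers and without normalization. Salmon 1.2.1, GRCm38 and mm10 are named, without a role, per the submitters' processing notes. Which annotation release was used, and how transcripts were summed and rounded, is not given in the sources used here. Per the labels, RNA was poly-A selected and libraries were strand-specific. Symbols, coordinates and transcript numbers come from GENCODE M21 (GRCm38, counted from 1). Columns were assigned by library name.

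The test was edgeR 4.0.16 in R 4.3.3 (quasi-likelihood, TMM scaling, no covariate, two-sided, Benjamini-Hochberg over 10390 genes). Genes were kept by filterByExpr with a minimum of 10 counts, taken as a CPM, in as many libraries as a group holds, and 15 in total. SE is the log2 fold change divided by the square root of F, and 95% intervals use its degrees of freedom. Alternatives were DESeq2 1.42.0, limma-voom (limma 3.58.1), other scalings and filters, a replicate block and each library left out. The fit was tested on simulated data.

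Members and lists were chosen with earlier results of these data known. Values in every library are given for Atf4, Ddit3, Atf6, Hspa5, Xbp1 and Ern1, for the 4 members of each branch with the smallest p, and for members whose groups did not overlap (none). Of each other pathway list the 2 genes with the smallest p are named. Gpt2, Eprs, Pdia3, Uggt1 and Erlec1 were not analysed here. Library pairs within a group differed beyond counting error (chi-square divided by its degrees of freedom, 13.7 to 138). Which animal gave which library is not labelled. The p-values therefore measure only the spread between these libraries, which may be technical.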

Additional observations from a re-analysis of the deposited data

Results flagged for a closer look

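Of the 56 combinations of a tested member and a group, 2 held a library that stood apart from the other 3 of its group by Dixon's test, where chance alone would give about 1 in 20. Manf was 28.4 CPM in POLR2G replicate 3, against 37.1 to 38.2 CPM in the other POLR2G libraries. Edem1 was 201 CPM in POLR2G replicate 4, against 169 to 174 CPM in the other POLR2G libraries. Whether these libraries stand apart by more than chance, and why, was not tested.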

How the results depend on the processing

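The count of members that passed was 0 under every alternative run. The count over all genes was 4 and became 1 with scaling by library totals only, 140 with DESeq2 and 1 to 6 with 1 library left out. With the replicate number as a block, on the 6 libraries whose numbers occur in both groups, it was 2, and 1 on the same libraries without the block. Same-numbered libraries did not vary together (correlations −0.025 to 0.064), so the numbers are not read as pairs. Without any low-count filter 35 members were tested. The 9 members left out by that filter had few or no counts in the table, and the cause was not tested.

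The ATF4 median, −0.12, was 0.093 among genes with 1 coding transcript, 0.0050 with the replicate block and 0.088 without GFP replicates 1 and 3 (the last chosen after seeing the data). With 1 library left out the medians ranged from −0.13 to −0.039 (ATF4), −0.20 to 0.034 (ATF6) and −0.055 to 0.16 (XBP1).

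Log2 fold changes of some members took the other sign in some settings, also for Psat1 (−0.39) and Ppp1r15a (−0.29), and the cause was not tested. With upper quartile scaling these were Sel1l 0.0080, Dnajb9 0.017 and Edem1 0.0055. With library totals only they were Trib3 −0.0025 and Calr −0.048, and with limma-voom Psat1 0.19 and Dnajb9 0.010. With the replicate block they were Psat1 0.19, Slc7a5 0.0050 and Sel1l 0.14, and on the same 6 libraries without it Slc7a5 0.0098 and Sel1l 0.14. Without GFP replicates 1 and 3 they were Atf4 0.045, Ppp1r15a 0.32, Creld2 0.0019, Sel1l 0.10, Dnajb9 0.18, Dnajc3 0.014 and Edem1 0.034.

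With 1 library left out, values ranged from −0.20 to 0.33 for Trib3, −0.043 to 0.11 for Calr, −0.14 to 0.21 for Dnajb9, −0.12 to 0.31 for Sesn2, −0.20 to 0.088 for Sel1l, −0.035 to 0.18 for Ern1, −0.090 to 0.026 for Edem1, −0.20 to 0.015 for Atf4, −0.23 to 0.034 for Hspa5, −0.29 to 0.053 for Creld2, −0.25 to 0.10 for Syvn1, −0.89 to 0.16 for Ppp1r15a and −0.0048 to 0.27 for Manf. Herpud1 kept its sign, from −0.33 to −0.099.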
